A study of Homo sapiens with 48 samples.

Results

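The subject of this account was 10 genes of ER-associated degradation (ERAD), the pathway that returns misfolded proteins from the endoplasmic reticulum (ER) to the cytosol for destruction. The members were taken by symbol and by no cut on a measured value, but with earlier results of these data known. They were the mannosidases EDEM1, EDEM2 and EDEM3, the lectin OS9, the ligase SYVN1 (the HRD1 protein) with its partners SEL1L and HERPUD1, and the derlins DERL1, DERL2 and DERL3. All 10 were found among the 58302 genes of the count table, and all 10 passed the filter on low counts in every fit. They had 888 to 49950 reads each per library. The data were read for how each member's mRNA changed when IRE1 or its substrate XBP1 was silenced, and whether the changes under the pair of silencing constructs were alike.

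AMO1 is a human cell line established from a plasmacytoma, a tumor of antibody-secreting plasma cells, and is used as a model of multiple myeloma. Cells of this line carried doxycycline (Dox)-inducible short hairpin RNAs (shRNAs), 3 different ones at a time per the labels, aimed either at ERN1, the gene of IRE1 (shIRE1 clones 1 and 3), or at XBP1 (shXBP1 clones 1 and 18). Each clone was grown in biological triplicate and given 0.2 µg/ml Dox for 24, 48 or 72 h or left untreated (0 h), so that there were 16 groups of 3 and 48 libraries of mRNA. Each name stands for 1 clone, so that a property of a clone and an effect of its shRNAs cannot be told apart except by comparing both clones of an shRNA. Every change is against the 0 h cells of the same clone. Control cells with a non-targeting shRNA were not used here. An action of Dox, or of hairpin expression by itself, thus cannot be told apart from silencing of the target.

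In ERAD, glycoproteins that fail to fold are marked by trimming of mannose residues, which the EDEM proteins carry out or promote, and the trimmed glycan is read by lectins such as OS9. The substrate then passes to a membrane complex of the ubiquitin ligase HRD1, its scaffold SEL1L, HERPUD1 and the derlins, and is pulled out by the ATPase VCP. Plasma cells secrete large amounts of antibody and rely on this pathway. Several of its genes are textbook targets of XBP1s, the transcription factor made once IRE1 has spliced XBP1 mRNA, and of ATF6, another sensor of ER stress.

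Promoters are shown for 4 members of the HRD1 complex and its substrate supply that moved in different ways below: HERPUD1 and EDEM1, which had the largest falls in shIRE1 clone 3 at 48 and 72 h, SEL1L, which fell more under shIRE1, and SYVN1, which fell more under shXBP1. Each is the 180 bases before the transcription start in the RefSeq promoter table (GRCh38.p14), written 5′ to 3′ on the strand of the gene, and capitals mark the letters CCACG or their reverse complement CGTGG, together with the ATTGG of the longer motif in HERPUD1.
HERPUD1, chr16:56931962-56932141, plus strand: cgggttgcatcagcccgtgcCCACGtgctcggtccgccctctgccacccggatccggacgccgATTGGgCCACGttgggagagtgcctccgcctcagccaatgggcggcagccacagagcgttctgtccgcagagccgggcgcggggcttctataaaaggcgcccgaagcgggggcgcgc
EDEM1, chr3:5187527-5187706, plus strand: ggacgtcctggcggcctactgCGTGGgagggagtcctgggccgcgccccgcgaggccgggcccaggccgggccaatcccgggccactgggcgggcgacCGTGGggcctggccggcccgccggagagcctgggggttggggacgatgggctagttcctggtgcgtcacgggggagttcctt
SEL1L, chr14:81533854-81534033, minus strand: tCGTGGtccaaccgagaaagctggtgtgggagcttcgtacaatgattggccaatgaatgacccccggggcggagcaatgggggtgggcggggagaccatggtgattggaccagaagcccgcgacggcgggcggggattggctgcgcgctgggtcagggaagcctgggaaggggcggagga
SYVN1, chr11:65134520-65134699, minus strand: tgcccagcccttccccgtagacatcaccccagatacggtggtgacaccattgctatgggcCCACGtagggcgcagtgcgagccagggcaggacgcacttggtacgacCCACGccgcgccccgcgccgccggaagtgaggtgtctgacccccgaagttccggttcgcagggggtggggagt

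RefSeq entries were matched for 8 of the 10 members, and DERL1 and DERL3 had none. Both strands of the 300-base windows (250 bases before and 50 after the start) were searched. The motifs were elements tied to ER stress (ERSE, ERSE-II and the core of UPRE) and the letters CCACG alone. The element ERSE-II, ATTGGNCCACG, was found in HERPUD1 alone among the 8, and in 0.0541% of the 35116 promoters of the table. The element ERSE, CCAAT and CCACG with 9 bases between them, is in 0.0769% of all promoters and in 0 of the 8, and the core TGACGTG of the element UPRE is in 1.97% and again in 0 of the 8. The letters CCACG, which ERSE and ERSE-II contain, were in 6 of the 8 (EDEM1, EDEM3, SEL1L, SYVN1, HERPUD1 and OS9, but neither EDEM2 nor DERL2), against 38.1% of all promoters. A match describes the letters of this window and is not a bound site, and the lack of a match says only that the letters are not there. Only exact matches were counted. The HERPUD1 sequence above holds CCAAT and, after 9 bases, CCACA, which misses ERSE by its last letter.

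Total counts ran from 19177855 to 40767202 per library, and 1 count was worth at most 0.0559 CPM (reads scaled to a common library total with TMM factors). Plasma cell markers were present, with SDC1 between 5105 and 15240 CPM and all 8 listed markers at 41.2 CPM or more in every library, whereas CD3D, CD2, CD22, PAX5, CD68, DCN and VWF were at or near 0. Of the 18 markers of other cell types only CD3E exceeded 4 CPM, at 4.59 to 17.3 CPM. The targeted genes moved as labelled: at 72 h ERN1 was at 0.671-fold and 0.283-fold of its 0 h level in shIRE1 clones 1 and 3, and XBP1 at 0.2-fold and 0.223-fold in shXBP1 clones 1 and 18. Beside this, XBP1 was at 0.769-fold and 0.553-fold in shIRE1 clones 1 and 3 (edgeR adjusted p = 3.45e-08 and 1.5e-08), and ERN1 at 1.65-fold in shXBP1 clone 1 and 0.82-fold in shXBP1 clone 18 (adjusted p = 8.74e-07 and 0.0119). A pair of libraries sat nearer to another clone than to their own over all genes. The library labelled shXBP1 clone 18, 72 h, replicate 3 correlated at 0.98 with its own group and 0.997 with shXBP1 clone 1, and the library labelled shIRE1 clone 3, 24 h, replicate 1 at 0.993 and 0.997 with shIRE1 clone 1. Both were kept under their labels, the former is called the doubted library below, and values without them are given for the 24 h changes of shIRE1 clone 3, the 72 h changes of shXBP1 clone 18, and the counts that they move.

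At 0 h, per kilobase of merged exons, HERPUD1 was the most abundant of the 10 mRNAs in each of the 4 clones, at 102 to 324 CPM per kb, and DERL2 was the least abundant, at 8.68 to 13.1 CPM per kb. The same 2 genes stood at the ends of the order when the length of the canonical transcript was used, with HERPUD1 at 182 to 575 and DERL2 at 13.3 to 20.1 CPM per kb. The order between them depended on the length: OS9 lay at 38.2 to 59.5 CPM per kb of merged exons and at 124 to 193 CPM per kb of canonical transcript. EDEM3 lay at 10.9 to 15.3 on the first scale and at 29.5 to 41.5 on the second. Annotated neighbors overlap 8 of the members, all but EDEM3 and SEL1L. Their share of the reads is uncertain, since how strand entered the counting is not given for these libraries in the sources used here.

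**Figure D1:**
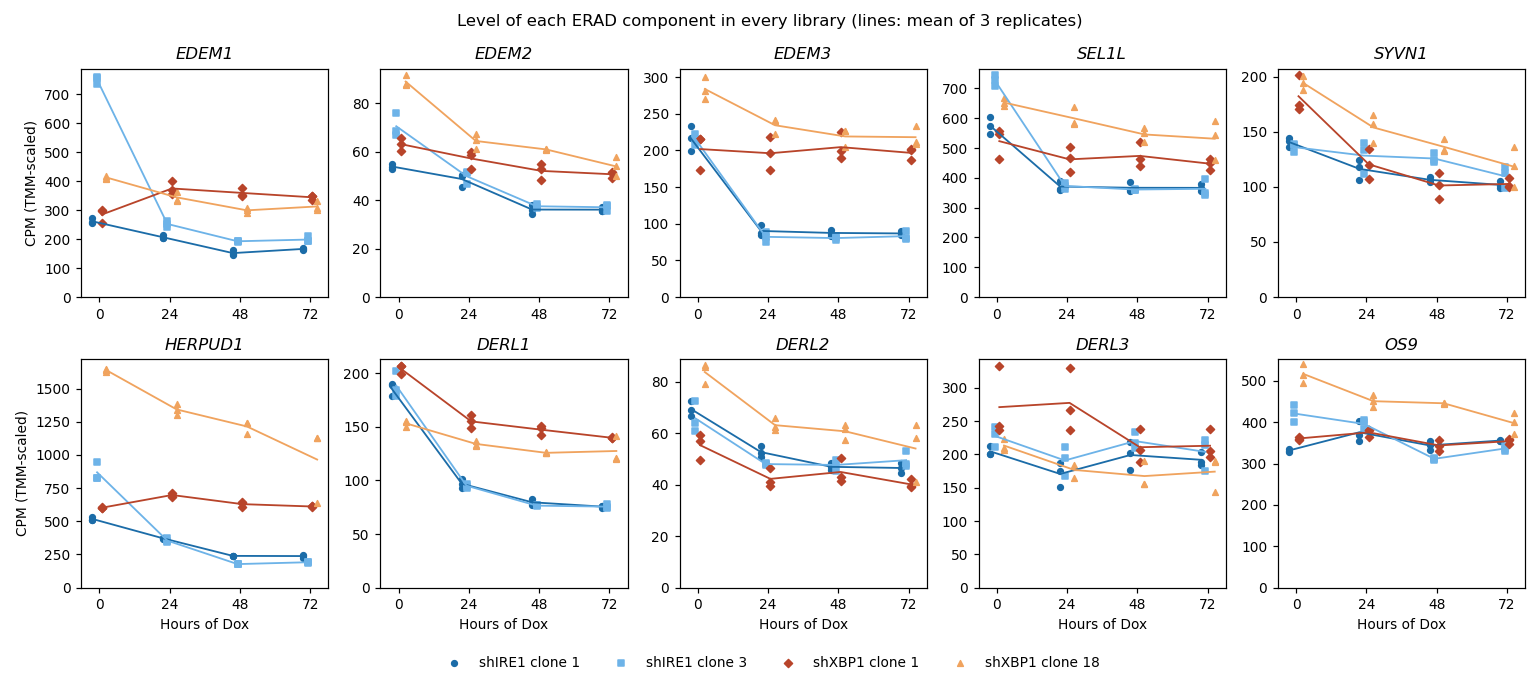
CPM (y axis, linear from 0) of each ERAD component against hours of Dox (x axis) in the 48 libraries, one point a library, colored by clone, with lines through the means of 3 replicates. EDEM3, SEL1L and DERL1 of both shIRE1 clones drop by 24 h and lie below the shXBP1 clones from then on, and 1 HERPUD1 point of shXBP1 clone 18 at 72 h (636 CPM) lies far under the other 2 of its group.

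EDEM1, which accelerates the disposal of misfolded glycoproteins, fell in both shIRE1 clones, rose in shXBP1 clone 1 and fell in shXBP1 clone 18. EDEM1 in shIRE1 clone 1 was 272, 255 and 258 CPM at 0 h, 213, 202 and 205 at 24 h, 145, 148 and 162 at 48 h and 163, 166 and 169.7 at 72 h. EDEM1 in shIRE1 clone 3 was 757, 758 and 737 CPM at 0 h, 241, 254 and 262 at 24 h, 194, 195 and 189 at 48 h and 193, 192 and 210.2 at 72 h. In both clones each library after Dox lay below each 0 h library, but the clones began far apart and ended close together. EDEM1 in shXBP1 clone 1 was 256, 300.5 and 298 CPM at 0 h, 399, 354 and 371 at 24 h, 349.8, 375 and 354 at 48 h and 336, 350.1 and 347 at 72 h. EDEM1 in shXBP1 clone 18 was 412, 419 and 407 CPM at 0 h, 364, 333 and 335 at 24 h, 308, 299.7 and 290.1 at 48 h and 299.5, 309 and 330.1 at 72 h. Thus all libraries after Dox lay above the 0 h libraries in shXBP1 clone 1 and below them in shXBP1 clone 18. At 72 h the log2 fold change was -0.66 ± 0.041 (SE, edgeR adjusted p = 7.29e-11) in shIRE1 clone 1. It was -1.93 ± 0.049 (adjusted p = 2.88e-13) in shIRE1 clone 3, which left 0.262-fold of the 0 h level in the latter. It was 0.25 ± 0.066 (adjusted p = 0.0122) in shXBP1 clone 1. Clone 18 gave -0.39 ± 0.056 (adjusted p = 0.000785), or -0.44 ± 0.052 with adjusted p = 8.36e-05 without the doubted library.

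EDEM3, a mannosidase of the same family, fell to 0.415-fold and 0.379-fold within 24 h in shIRE1 clones 1 and 3 and then stayed near that level. EDEM3 in shIRE1 clone 1 was 234, 216 and 199.7 CPM at 0 h, 98.6, 84.6 and 87.2 at 24 h, 83.8, 86.4 and 92.0 at 48 h and 84.0, 86.3 and 89.9 at 72 h. EDEM3 in shIRE1 clone 3 was 208, 223 and 216 CPM at 0 h, 89.3, 81.4 and 75.7 at 24 h, 79.9, 82.8 and 78.5 at 48 h and 80.7, 78.9 and 89.7 at 72 h. The 2 clones ran side by side, with no overlap between 0 h and any later time. EDEM3 in shXBP1 clone 1 was 174, 216 and 216 CPM at 0 h, 218, 174 and 196 at 24 h, 189, 226 and 199 at 48 h and 187, 201 and 202 at 72 h. EDEM3 in shXBP1 clone 18 was 269.7, 300.5 and 281 CPM at 0 h, 241, 239.6 and 222 at 24 h, 227, 226 and 205 at 48 h and 211, 234 and 209 at 72 h. In shXBP1 clone 1 the groups overlapped at every time, and in shXBP1 clone 18 all later libraries lay below the 0 h ones by a smaller margin. The log2 fold change at 24 h was -1.27 ± 0.059 (SE, edgeR adjusted p = 1.1e-12) in shIRE1 clone 1 and -1.40 ± 0.063 (adjusted p = 2.25e-10) in shIRE1 clone 3. Neither change passed in shXBP1 clone 1, with -0.07 ± 0.099 after 24 h and -0.06 ± 0.099 after 72 h (adjusted p = 0.645 and 0.668). Clone 18 gave -0.37 ± 0.067 at 72 h (adjusted p = 0.00445), or -0.35 ± 0.068 with adjusted p = 0.00581 without the doubted library.

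EDEM2, which starts the trimming of the glycan, fell in all 4 clones at 48 and 72 h. EDEM2 in shIRE1 clone 1 was 53.1, 53.7 and 55.0 CPM at 0 h, 45.5, 50.1 and 50.6 at 24 h, 36.1, 37.8 and 34.4 at 48 h and 35.5, 37.1 and 35.7 at 72 h. EDEM2 in shIRE1 clone 3 was 76.1, 67.0 and 68.5 CPM at 0 h, 46.8, 51.4 and 51.7 at 24 h, 37.0, 36.9 and 38.6 at 48 h and 37.6, 35.5 and 38.1 at 72 h. The level in shIRE1 clone 3 fell in 2 stages and that in clone 1 mainly between 24 and 48 h, and they met at about the same value. EDEM2 in shXBP1 clone 1 was 65.8, 60.3 and 63.3 CPM at 0 h, 53.0, 58.8 and 59.8 at 24 h, 55.1, 52.7 and 48.5 at 48 h and 49.2, 51.6 and 51.4 at 72 h. EDEM2 in shXBP1 clone 18 was 91.5, 88.0 and 87.5 CPM at 0 h, 61.2, 67.4 and 64.8 at 24 h, 61.0, 60.7 and 61.3 at 48 h and 57.7, 54.2 and 49.9 at 72 h. In all 4 clones each later library lay below each 0 h library. At 72 h the log2 fold change was -0.58 ± 0.056 and -0.94 ± 0.063 in shIRE1 clones 1 and 3 (SE, edgeR adjusted p = 2.97e-08 and 5.26e-09). It was -0.34 ± 0.068 and -0.72 ± 0.062 for the shXBP1 clones in the same order (1, then 18; adjusted p = 0.0029 and 1.1e-05). Clone 18 gave -0.66 ± 0.059 (adjusted p = 4.81e-06) without the doubted library. The fall in shIRE1 clone 1 at 24 h, -0.15 ± 0.054 (adjusted p = 0.0226), depended on the scaling, as total counts alone gave 0.0062, and was lost without 0 h replicate 3 or 24 h replicate 1.

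OS9, the lectin that reads the trimmed glycan, rose in shIRE1 clone 1 at 24 h and fell in shIRE1 clone 3 at 48 and 72 h. At no time did the changes of both clones pass. Its group means ranged from 311 to 421 CPM in the shIRE1 clones and from 344 to 517 CPM in the shXBP1 clones. In shIRE1 clone 1 it rose at 24 h, by a log2 fold change of 0.18 ± 0.044 (SE, edgeR adjusted p = 0.00193), the libraries lying at 354 to 404 CPM against 329 to 336 CPM at 0 h. In shIRE1 clone 3 it fell, by -0.44 ± 0.049 at 48 h (adjusted p = 1.33e-06), with 308 to 314 CPM against 400.1 to 441 CPM. At 72 h the libraries of clone 1 still lay above its 0 h range, but the change of 0.10 ± 0.044 did not pass (adjusted p = 0.0611), while clone 3 remained lower at -0.34 ± 0.049 (adjusted p = 2.5e-05). The changes of OS9 in shXBP1 clone 1 were between -0.08 and 0.03 and did not pass, whereas in shXBP1 clone 18 it reached -0.37 ± 0.055 at 72 h (adjusted p = 0.00118), and -0.33 ± 0.050 without the doubted library (adjusted p = 0.000811).

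SEL1L, the scaffold of the HRD1 ligase, fell within 24 h in both shIRE1 clones and stayed there, as EDEM3 did. SEL1L in shIRE1 clone 1 was 605, 575 and 546 CPM at 0 h, 391, 359 and 363 at 24 h, 358, 355 and 387 at 48 h and 356, 365 and 378 at 72 h. SEL1L in shIRE1 clone 3 was 709, 747 and 728 CPM at 0 h, 384, 372 and 362 at 24 h, 360.4, 359 and 363 at 48 h and 349.9, 344 and 396 at 72 h. No later library overlapped the 0 h libraries, and from 24 h on the clones lay in about the same range. SEL1L in shXBP1 clone 1 was 464, 547 and 558 CPM at 0 h, 503, 418 and 465 at 24 h, 440.5, 519 and 462 at 48 h and 427, 465 and 451 at 72 h. SEL1L in shXBP1 clone 18 was 641, 667 and 650.0 CPM at 0 h, 637, 583 and 579 at 24 h, 567, 549 and 520.2 at 48 h and 543, 591 and 459 at 72 h. The groups of shXBP1 clone 1 overlapped at all times, and those of shXBP1 clone 18 were only just separate at 24 h. At 72 h the log2 fold change was -0.65 ± 0.044 in shIRE1 clone 1 (SE, edgeR adjusted p = 2.08e-10) and -1.02 ± 0.052 in shIRE1 clone 3 (adjusted p = 2.24e-10). Under shXBP1 it was -0.25 ± 0.084 in clone 1 (adjusted p = 0.0393) and -0.29 ± 0.078 in clone 18 (adjusted p = 0.0343). The call in clone 1 was lost without 0 h replicate 2 or 3 or any of the 3 replicates at 72 h, with values from -0.32 to -0.20, and with total counts alone. Same-numbered libraries of this comparison deviated together (r = 0.652, 0.365 and 0.371 for replicates 1 to 3), and with the replicate number as a block SEL1L was at -0.25 ± 0.088 (adjusted p = 0.0613), so that 5 members passed in this comparison in place of 6. The call in clone 18 was lost without 0 h replicates 1, 2 or 3 or without the doubted library, which gave -0.20 ± 0.058 (adjusted p = 0.0538).

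SYVN1, the ubiquitin ligase itself, fell more under shXBP1 than under shIRE1, unlike SEL1L and HERPUD1. SYVN1 in shIRE1 clone 1 was 136, 142 and 144 CPM at 0 h, 107, 118 and 125 at 24 h, 109, 106 and 104 at 48 h and 105, 101 and 99.2 at 72 h. SYVN1 in shIRE1 clone 3 was 139, 131 and 138 CPM at 0 h, 112, 139.9 and 134 at 24 h, 131, 122 and 124 at 48 h and 118, 113 and 98.6 at 72 h. In shIRE1 clone 1 all later libraries lay below the 0 h ones, and in shIRE1 clone 3 the groups overlapped at 24 h. SYVN1 in shXBP1 clone 1 was 202, 175 and 170.3 CPM at 0 h, 107, 134 and 120.0 at 24 h, 113, 89.0 and 102 at 48 h and 108, 101 and 99.6 at 72 h. SYVN1 in shXBP1 clone 18 was 201, 188 and 194 CPM at 0 h, 139, 157 and 165 at 24 h, 132, 134 and 143 at 48 h and 136, 119 and 99.8 at 72 h. Both shXBP1 clones had no overlap between 0 h and any later time. The log2 fold change in shXBP1 clone 1 was -0.62 ± 0.10 at 24 h (SE, edgeR adjusted p = 0.00126) and -0.85 ± 0.10 at 72 h (adjusted p = 0.000118). This left 0.555-fold of the 0 h level. In shXBP1 clone 18 it was -0.71 ± 0.094 at 72 h (adjusted p = 0.00044), and -0.60 ± 0.075 (adjusted p = 0.000137) without the doubted library. In shIRE1 clone 1 it was -0.47 ± 0.052 (adjusted p = 2.36e-07). In shIRE1 clone 3 it was -0.32 ± 0.083 (adjusted p = 0.00379), a call that was lost with total counts alone.

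HERPUD1, the stress-inducible organizer of the HRD1 complex, had the largest fall of the 10 members in shIRE1 clone 3 at 48 and 72 h. HERPUD1 in shIRE1 clone 1 was 533, 513 and 507 CPM at 0 h, 365, 375 and 377 at 24 h, 241, 236 and 242 at 48 h and 227, 249 and 239 at 72 h. HERPUD1 in shIRE1 clone 3 was 951, 829 and 828 CPM at 0 h, 344, 349 and 371 at 24 h, 176, 178 and 179 at 48 h and 189, 191 and 194 at 72 h. Each later library lay below each 0 h library in both clones, and a further drop came between 24 and 48 h. HERPUD1 in shXBP1 clone 1 was 609.7, 597 and 600.2 CPM at 0 h, 699.8, 680.4 and 715 at 24 h, 636, 646 and 607 at 48 h and 605, 618 and 612 at 72 h. HERPUD1 in shXBP1 clone 18 was 1642, 1626 and 1648 CPM at 0 h, 1303, 1385 and 1342 at 24 h, 1245, 1241 and 1159.6 at 48 h and 1130.4, 1129.8 and 636 at 72 h. In shXBP1 clone 1 the 24 h libraries lay above those of 0 h and the later ones overlapped them, and in shXBP1 clone 18 all later libraries were lower. At 48 h the log2 fold change was -2.30 ± 0.057 in shIRE1 clone 3 (SE, edgeR adjusted p = 1.81e-13), or 0.203-fold, and -1.11 ± 0.038 in shIRE1 clone 1 (adjusted p = 1.02e-14). The change in shXBP1 clone 1 was 0.19 ± 0.038 at 24 h (adjusted p = 0.00363), a rise that did not pass in a fit of all 48 libraries or of the 6 compared libraries, and 0.00 ± 0.038 at 72 h. Clone 18 had -0.29 ± 0.15 at 24 h and -0.43 ± 0.15 at 48 h, neither of which passed (adjusted p = 0.445 and 0.121). The 48 h fall did pass without 72 h replicate 3. At 72 h clone 18 had -0.76 ± 0.15 (adjusted p = 0.00939), with replicate 3 of that group at 636 CPM. Without that library it was -0.53 ± 0.049 (adjusted p = 6.9e-06).

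DERL1, the derlin that associates with VCP at the ER membrane, fell in all 4 clones and most in the shIRE1 clones. DERL1 in shIRE1 clone 1 was 189, 189.8 and 178 CPM at 0 h, 101, 96.7 and 93.1 at 24 h, 79.2, 77.3 and 82.4 at 48 h and 74.1, 76.6 and 76.1 at 72 h. DERL1 in shIRE1 clone 3 was 203, 184 and 179 CPM at 0 h, 96.8, 93.3 and 95.2 at 24 h, 77.1, 75.7 and 76.7 at 48 h and 74.3, 74.8 and 77.6 at 72 h. The clones of shIRE1 lay in about the same range at each time. DERL1 in shXBP1 clone 1 was 199.6, 206 and 206 CPM at 0 h, 161, 149 and 156 at 24 h, 151, 149 and 142 at 48 h and 140.2, 139.9 and 139 at 72 h. DERL1 in shXBP1 clone 18 was 149.8, 156 and 154 CPM at 0 h, 136, 133 and 133 at 24 h, 126, 126 and 125 at 48 h and 121, 119.8 and 142 at 72 h. No later library of any clone reached the range of its 0 h libraries. The log2 fold change at 72 h was -1.30 ± 0.042 and -1.33 ± 0.051 in shIRE1 clones 1 and 3 (SE, edgeR adjusted p = 6.45e-15 and 1.01e-11). It was -0.57 ± 0.045 in shXBP1 clone 1 (adjusted p = 5.03e-06) and -0.26 ± 0.064 in shXBP1 clone 18 (adjusted p = 0.0233). The last value was -0.35 ± 0.045 (adjusted p = 0.000205) without the doubted library, and its call was lost when 0 h replicate 1, 2 or 3 or 72 h replicate 2 of the clone was left out.

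DERL2, the closest relative of DERL3 and the least abundant of the 10 by length, fell in all 4 clones at 72 h. Its 0 h libraries ranged from 49.6 to 86.5 CPM over the clones and its 72 h libraries from 39.0 to 63.1 CPM. The log2 fold change at 72 h was -0.58 ± 0.051 and -0.42 ± 0.067 in shIRE1 clones 1 and 3 (SE, edgeR adjusted p = 8.29e-09 and 5.95e-05). For shXBP1 clone 1 it was -0.49 ± 0.093 and for clone 18 -0.63 ± 0.12 (adjusted p = 0.00219 and 0.00612). Without the doubted library clone 18 gave -0.46 ± 0.068 (adjusted p = 0.0006), and with that library its call was lost in a fit of the 6 compared libraries. DERL3, a derlin found mainly in secretory cells, varied widely between replicates. Its 0 h libraries in shXBP1 clone 1 ran from 237 to 333 CPM, and its group means over the series ran from 167 to 277 CPM. The highest of these libraries, replicate 1, also differed from replicates 2 and 3 over genes at large. The mean chi-square per gene was 43.15 and 43.58, against 2.645 between replicates 2 and 3. Replicates 1 and 2 of this clone at 24 h were at 62.07. In the shIRE1 clones it passed against 0 h at 24 h and at no later time, with -0.27 ± 0.076 (adjusted p = 0.00535) and -0.26 ± 0.096 (adjusted p = 0.0375). Both calls were lost with total counts alone and in a fit of all 48 libraries. Without the library labelled shIRE1 clone 3, 24 h, replicate 1 the second was -0.17 ± 0.095 (adjusted p = 0.144), and it was also lost without 24 h replicate 3 or 0 h replicate 1 or 3. In the shXBP1 clones DERL3 did not pass, but at 48 h, and at 72 h in clone 1 at least, this depended on the fit. Clone 18 gave -0.35 ± 0.10 (adjusted p = 0.0673) and passed without the doubted library, at -0.35 ± 0.093 (adjusted p = 0.0239), as well as without 48 h replicate 3, without a filter, with DESeq2 and in the fit of 6 libraries. At 72 h clone 18 gave -0.29 (adjusted p = 0.0954), or -0.35 ± 0.10 without the doubted library (adjusted p = 0.0572). Clone 1 gave -0.38 ± 0.15 at 48 h (adjusted p = 0.0774) and passed without a filter, with DESeq2 and in the fit of 48 libraries. At 72 h clone 1 gave -0.37 ± 0.15 (adjusted p = 0.0819) and passed without a filter and in the fit of 48 libraries. In bulk RNA, less RNA per cell and fewer cells that express a gene cannot be told apart, for any of these members.

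**Figure D2:**
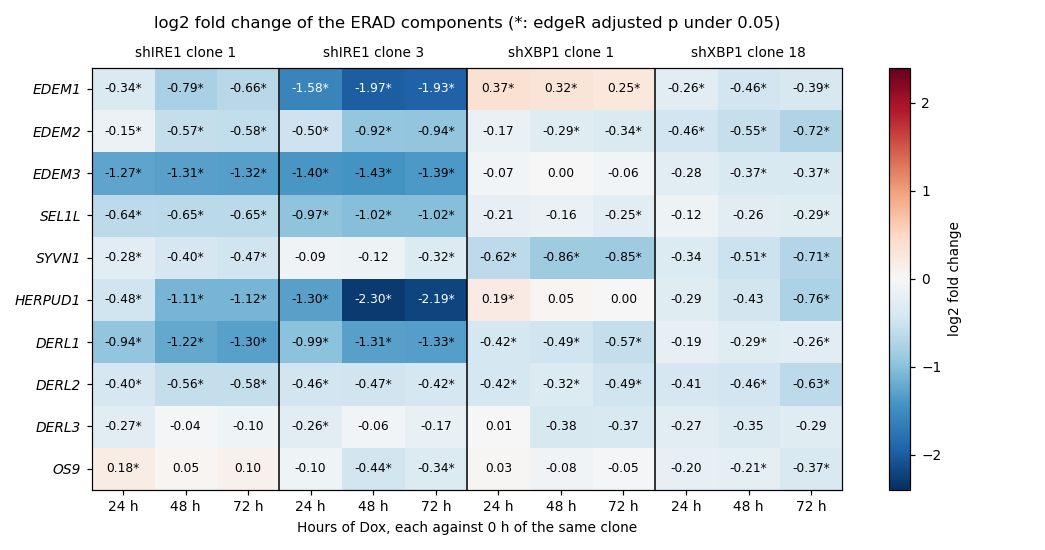
log2 fold change against 0 h of the same clone (color scale and printed value) for the 10 members (rows) at 24, 48 and 72 h in the 4 clones (columns), with a star where the edgeR adjusted p is under 0.05. Values in the shIRE1 clones reach -2.30 (HERPUD1, clone 3, 48 h), and those in the shXBP1 clones lie between -0.86 (SYVN1, clone 1, 48 h) and 0.37 (EDEM1, clone 1, 24 h).

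The members were then counted in each comparison and set against all genes tested in the same fit. In shIRE1 clone 1, 9 members fell and OS9 rose at 24 h, when 29% of 17154 genes were called lower and 32.4% higher (edgeR adjusted p under 0.05). At 48 and 72 h 8 members fell, all but DERL3 and OS9, beside 31.5% and 31.1% of genes called lower and 33.9% and 32.5% higher. In shIRE1 clone 3, 8 members fell at 24 h (7 without the library labelled 24 h replicate 1, which lost DERL3) and 8 at 48 h, beside 23.3% and 31.6% of genes lower and 22.8% and 31.6% higher. At 72 h 9 fell, all but DERL3, beside 30.5% lower and 29.7% higher. Without the library labelled 24 h replicate 1 the log2 fold changes of this clone at 24 h were -1.55 for EDEM1, -1.46 for EDEM3, -1.28 for HERPUD1, -1.004 for DERL1, -0.99 for SEL1L and -0.46 for EDEM2 and DERL2 alike, with OS9 at -0.07 and SYVN1 at 0.00, neither of which passed. The median log2 fold change of the 10 members at 72 h was -0.62 in shIRE1 clone 1 and -0.98 in shIRE1 clone 3, and the median of all genes was 0.02 in each.

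Under shXBP1 fewer genes passed: in clone 1, 3 members fell and 2 rose (EDEM1 and HERPUD1) at 24 h, beside 12.8% of 16603 genes called lower and 13.9% higher. At 48 h 4 fell and EDEM1 rose, beside 15.5% lower and 16.6% higher, and at 72 h 5 fell and EDEM1 rose, beside 16.8% in each direction. The 48 h fall of DERL2 in this clone was -0.32 ± 0.093 (SE, edgeR adjusted p = 0.0215). Its call was lost with total counts alone and without 0 h replicate 3 or 48 h replicate 1 or 3. In shXBP1 clone 18 few genes of any kind passed at first: 2 members fell at 24 h (EDEM1 and EDEM2) beside 1.3% of 16860 genes lower and 0.291% higher, and that of EDEM1 was lost without any of 0 h replicates 1 to 3 or 24 h replicates 2 and 3. There 7 members fell at 48 h beside 3.5% lower and 2.28% higher, and 9 fell at 72 h, all but DERL3, beside 5.55% lower and 4.41% higher. Without the doubted library of this clone 8, 10 and 8 members fell at 24, 48 and 72 h, beside 3.33%, 7.16% and 4.48% of genes called lower. The median of the members at 72 h was -0.29 in shXBP1 clone 1 and -0.38 in shXBP1 clone 18, and that of all genes was -0.01 in each. All 10 members share the same libraries, and so these counts are not 10 independent observations.

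The time course in the shIRE1 clones came in a first and a second stage. From 24 to 48 h 7 members passed in clone 1, with 6 lower and DERL3 higher, beside 30.3% of genes called in either direction, the calls of DERL2, DERL3 and OS9 each being lost without some single libraries, and 5 passed in clone 3, all lower, beside 34.6%. HERPUD1 had the largest second step, a log2 change of -0.63 ± 0.037 in clone 1 (SE, edgeR adjusted p = 4.82e-10) and -1.001 ± 0.055 in clone 3 (adjusted p = 3.01e-09). EDEM1 moved by -0.44 and -0.39, EDEM2 by -0.42 and -0.42, and DERL1 by -0.28 and -0.32 in clones 1 and 3, all of which passed. Without the library labelled shIRE1 clone 3, 24 h, replicate 1 the same 5 members passed in clone 3, HERPUD1 at -1.025, EDEM2 at -0.46, EDEM1 at -0.43, OS9 at -0.37 and DERL1 at -0.31. EDEM3 moved by -0.04 ± 0.059 and -0.03 ± 0.062, and SEL1L by -0.01 ± 0.044 and -0.05 ± 0.051, none of which passed. From 48 to 72 h edgeR called 0 of the 10 members in either clone, with 1 (EDEM1, clone 1) and 2 (OS9 and SYVN1, clone 3) at an unadjusted p under 0.05, and DESeq2 and limma also called 0. The share of all genes called in this step was 0.869% in clone 1 and 0.936% in clone 3.

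Whether the response differed between the silencing of IRE1 and of XBP1 was tested directly in a fit of 48 libraries. The test took the difference of log2 fold changes, each averaged over its pair of clones. Its SE and p measure the spread between replicate libraries and not that between clones, so it speaks of these 4 clones only. At 48 h EDEM1 changed by -0.79 and -1.97 in shIRE1 clones 1 and 3. In shXBP1 clones 1 and 18 it changed by 0.32 and -0.46. At 24 h 5 members were lower under shIRE1 than under shXBP1 and 2 were higher (SYVN1 and OS9), beside 19.7% of 18445 genes lower and 19.1% higher. At 48 h 6 were lower and 2 higher (SYVN1 and DERL3), beside 28% lower and 28.9% higher, and at 72 h 6 were lower and SYVN1 higher, beside 27.4% lower and 28% higher. The largest difference was that of HERPUD1 at 48 h, -1.52 ± 0.096 (SE, edgeR adjusted p = 7.9e-17). EDEM1 differed by -1.31 ± 0.053 (adjusted p = 6.82e-23). EDEM3 differed by -1.19 ± 0.081 (adjusted p = 6.66e-16) at the same time. DERL1 differed most at 72 h, by -0.90 ± 0.048 (adjusted p = 4.49e-19). SEL1L did so at 24 h, by -0.65 ± 0.073 (adjusted p = 1.4e-09).

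SYVN1 was the member whose response was higher under shIRE1 at all 3 times, by 0.29 ± 0.091, 0.42 ± 0.091 and 0.38 ± 0.091 (SE, edgeR adjusted p = 0.0105, 0.000138 and 0.000458). At 24 h neither pairing of single clones passed for SYVN1 (0.32 ± 0.13 for clone 1 against clone 1 and 0.25 ± 0.13 for clone 3 against clone 18). EDEM2 differed by -0.33 ± 0.059 at 48 h (adjusted p = 7.83e-06) and by -0.23 ± 0.059 at 72 h (adjusted p = 0.000959). For DERL2 no difference was detected, with -0.03 ± 0.093, -0.13 ± 0.093 and 0.06 ± 0.093 at the 3 times (adjusted p = 0.845, 0.229 and 0.641). The difference of OS9 at 24 h, 0.11 ± 0.045 (adjusted p = 0.0391), and that of DERL3 at 48 h, 0.31 ± 0.12 (adjusted p = 0.029), passed in neither pairing of single clones. The call of OS9 was lost when any of 18 of the 24 libraries at 0 and 24 h was left out (0.0848 to 0.127 over all of them), and that of DERL3 when any of 8 was (shIRE1 clone 1 48 h replicate 1, clone 3 0 h replicate 2 and 48 h replicate 1, shXBP1 clone 1 0 h replicate 1 and 48 h replicate 2, and clone 18 0 h replicate 1 and 48 h replicates 1 and 2). Without the doubted library of shXBP1 clone 18 the counts of members called were again 7, 8 and 7.

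**Figure D3:**
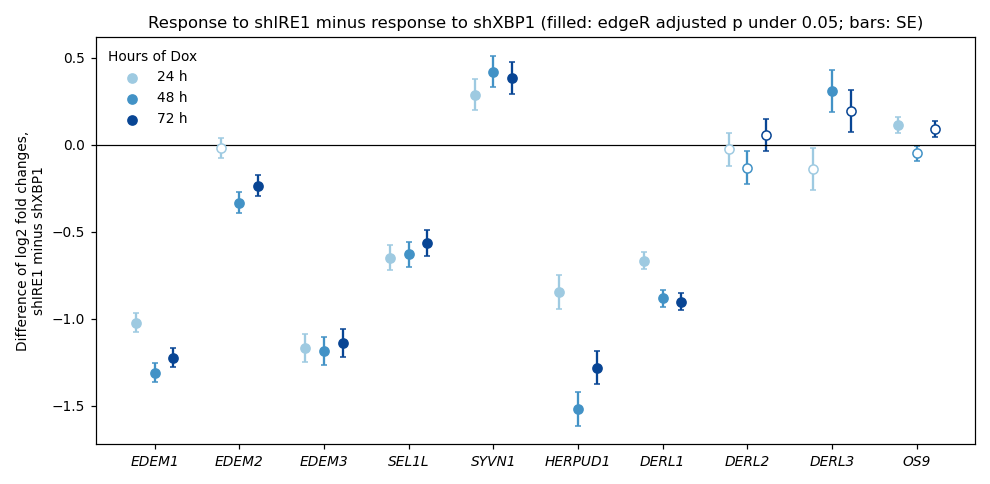
Difference of log2 fold changes, shIRE1 minus shXBP1 (y axis), for each member (x axis) at 24, 48 and 72 h of Dox, with bars of 1 SE and filled points where the edgeR adjusted p is under 0.05. EDEM1, EDEM3, SEL1L, HERPUD1 and DERL1 lie at -0.57 or lower at all 3 times, and SYVN1 lies between 0.29 and 0.42.

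The 2 shIRE1 clones differed in more members before Dox than after 72 h of it. The same held for genes at large, of which 40.6% differed at 0 h and 14.7% at 72 h. At 0 h 5 members were lower in clone 1 than in clone 3, beside 40.6% of genes that differed in either direction. EDEM1 was lower by a log2 difference of -1.52 ± 0.054 (SE, edgeR adjusted p = 7.74e-24) and HERPUD1 by -0.75 ± 0.096 (adjusted p = 3.46e-08), with EDEM2 at -0.39, OS9 at -0.34 and SEL1L at -0.34. ERN1 itself differed by -1.52 ± 0.046 at 0 h, the same size as EDEM1. The difference in response, clone 1 minus clone 3, was above 0 and passed for these 5 members at 24, 48 and 72 h: 4 fell less in clone 1, and OS9 moved as described above. This stood beside 28.2%, 30.8% and 27.5% of genes with a different response in either direction. For EDEM1 the difference in response was 1.23, 1.18 and 1.27 (SE 0.075 each, adjusted p = 1.26e-15, 1.17e-15 and 2.17e-16). For HERPUD1 it was 0.82 ± 0.14, 1.18 ± 0.14 and 1.06 ± 0.14 (adjusted p = 1.05e-05, 7.67e-09 and 8.24e-08). These responses share the 0 h libraries with the comparison at 0 h, and so they are not separate evidence.

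At 72 h the levels of the shIRE1 clones were compared directly, and 2 members differed, beside 14.7% of genes. EDEM1 was still lower in clone 1, by -0.26 ± 0.053 (SE, edgeR adjusted p = 0.00068), and HERPUD1 was now higher there, by 0.31 ± 0.097 (adjusted p = 0.0225), a call lost without 72 h replicates 2 or 3 of clone 1 or 1 or 2 of clone 3. EDEM2 stood at -0.04 ± 0.061, SEL1L at 0.01 ± 0.073, EDEM3 at 0.06 ± 0.082 and DERL1 at 0.00 ± 0.049. ERN1 differed by -0.29 ± 0.046 at this time (adjusted p = 2e-05).

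The shXBP1 clones differed at 0 h in 9 of the 10 members, beside 51.3% of genes, with SYVN1 the exception at -0.09 ± 0.09 (SE, edgeR adjusted p = 0.417). HERPUD1 was lower in clone 1 than in clone 18 by -1.44 ± 0.097 (adjusted p = 2.1e-15), and DERL1 was higher by 0.41 ± 0.048 (adjusted p = 2.65e-09). Responses differed for 5, 5 and 6 members at 24, 48 and 72 h, beside 17.1%, 24.1% and 24.6% of genes. EDEM1 had the largest difference in response at 24 and 48 h, 0.66 ± 0.075 and 0.80 ± 0.075 (adjusted p = 2.36e-08 and 2.3e-10), and its direction was opposite in the 2 clones. HERPUD1 differed by 0.79 ± 0.14 at 72 h (adjusted p = 2.95e-05), and by 0.53 ± 0.061 (adjusted p = 2.21e-08) without the doubted library. DERL1 was the 1 member called with a larger fall in clone 1 than in clone 18, at -0.20 ± 0.068, -0.18 ± 0.068 and -0.28 ± 0.068. Without the doubted library SYVN1 also passed at 48 h, at -0.36 ± 0.12 (adjusted p = 0.0217), and EDEM3 no longer passed at 72 h, at 0.28 ± 0.12 (adjusted p = 0.0851). The levels at 72 h differed for 4 members (HERPUD1, DERL2, SEL1L and OS9), beside 14.5% of genes, and for 7 without the doubted library.

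A further 54 genes of the pathway were followed as a list: lectins and enzymes of substrate delivery, other ER ligases with their partners, the VCP machinery and cytosolic handling. In shIRE1 clone 1, 27, 28 and 32 of them fell and 15, 13 and 12 rose at 24, 48 and 72 h, where 29%, 31.5% and 31.1% of all genes were called lower and 32.4%, 33.9% and 32.5% higher. In shIRE1 clone 3, 24, 33 and 33 fell and 10, 15 and 9 rose, beside 23.3%, 31.6% and 30.5% of all genes lower and 22.8%, 31.6% and 29.7% higher. In shXBP1 clone 1, 13, 19 and 20 fell and 4, 6 and 5 rose, beside 12.8%, 15.5% and 16.8% of all genes lower and 13.9%, 16.6% and 16.8% higher. In shXBP1 clone 18, 3, 8 and 10 fell and 1 rose at 48 h, beside 1.3%, 3.5% and 5.55% lower and 2.28% higher at 48 h. Without the doubted library 7, 11 and 9 fell there and again 1 rose at 48 h, beside the shares of all genes given above for that fit. Their median log2 fold change at 72 h was -0.21 and -0.27 in shIRE1 clones 1 and 3 and -0.13 and -0.14 in shXBP1 clones 1 and 18, nearer to 0 than the medians of the 10 members.

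The list was also counted by class at 72 h, beside the shares of all genes just given. Of 12 lectins and enzymes of delivery, 6 fell and 3 rose in shIRE1 clone 1 and 9 fell and 3 rose in shIRE1 clone 3. Of 18 ligases and partners, 11 fell and 3 rose in clone 1 and 12 fell and 1 rose in clone 3. Of 9 genes of VCP-driven extraction, 7 and 6 fell in clones 1 and 3 and 1 rose in each. Of 15 genes of cytosolic handling, 8 fell and 5 rose in clone 1 and 6 fell and 4 rose in clone 3. Genes are named here that passed in the same direction in both clones of an shRNA. Under shIRE1 the largest mean fall was that of DNAJB9, an ER chaperone that delivers substrates to ERAD, at -1.39 ± 0.065 and -2.42 ± 0.089 in clones 1 and 3 (SE, edgeR adjusted p = 9.99e-13 and 7.15e-12). SVIP, a small inhibitor of ERAD that binds VCP, followed at -0.998 ± 0.068 and -1.42 ± 0.082 in clones 1 and 3 (SE, edgeR adjusted p = 2.22e-10 and 9.71e-10). SELENOS, a membrane protein that recruits VCP, was next at -0.83 ± 0.052 and -1.27 ± 0.083 in clones 1 and 3 (SE, edgeR adjusted p = 7.81e-11 and 3.65e-09). The largest mean rise was that of FBXO2, a ligase subunit that binds glycoproteins in the cytosol, at 1.74 ± 0.19 and 1.03 ± 0.20 in clones 1 and 3 (SE, edgeR adjusted p = 1.74e-07 and 0.000414). MAN1B1, a mannosidase that trims glycans, followed at 0.86 ± 0.07 and 0.32 ± 0.081 in clones 1 and 3 (SE, edgeR adjusted p = 2.86e-09 and 0.00276). ERLIN1, an ER membrane protein that takes part in the disposal of activated calcium channels, was next at 0.48 ± 0.048 and 0.36 ± 0.061 in clones 1 and 3 (SE, edgeR adjusted p = 5.4e-08 and 0.000133). Under shXBP1 the largest mean fall was again that of DNAJB9, at -0.83 ± 0.089 and -1.65 ± 0.087 in clones 1 and 18 (SE, edgeR adjusted p = 4.63e-05 and 1.46e-07). ERLEC1, a lectin akin to OS9, stood at -0.38 ± 0.091 and -0.75 ± 0.10 in clones 1 and 18 (SE, edgeR adjusted p = 0.00828 and 0.000451). SELENOS again followed, at -0.45 ± 0.06 and -0.54 ± 0.055 in clones 1 and 18 (SE, edgeR adjusted p = 0.000221 and 5.37e-05). In clone 18 without the doubted library the values of DNAJB9, ERLEC1 and SELENOS were -1.58 ± 0.085, -0.63 ± 0.076 and -0.50 ± 0.054 (adjusted p = 3.27e-08, 0.000102 and 4e-05).

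**Figure D4:**
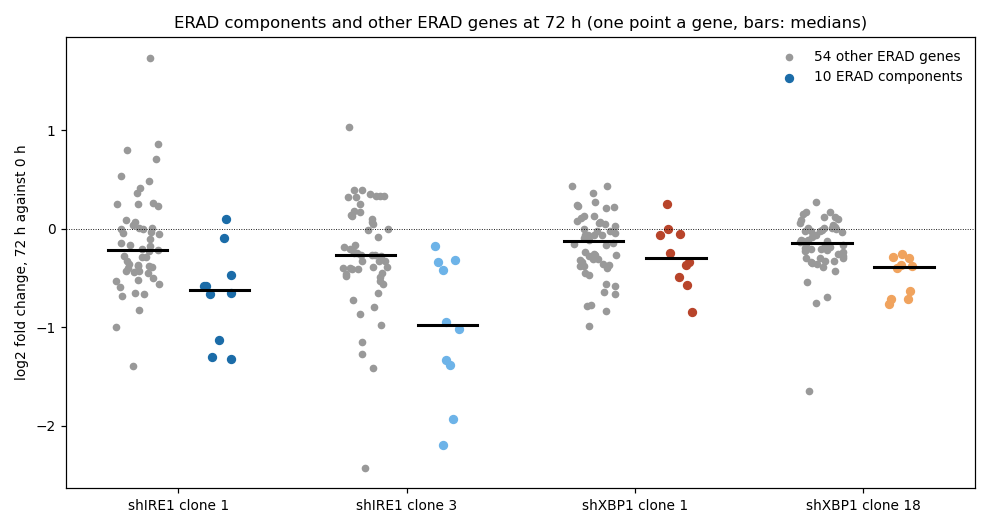
log2 fold change at 72 h against 0 h (y axis) in each clone (x axis), with grey points for the 54 other ERAD genes, colored points for the 10 members and black bars for the medians. The median of the members lies below that of the other genes in each clone, -0.98 against -0.27 in shIRE1 clone 3, where the gap is widest.

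How the members moved with each other was described by the correlation of their log2 CPM, each library taken relative to the mean of its clone, across the 48 libraries. These libraries share 4 clones and a time course, and so the values have no test. The values also include differences between replicates of a group. Replicate 1 of shXBP1 clone 1 at 0 h was the highest of its group for SYVN1 and DERL3 (202 and 333 CPM). It was the lowest for EDEM3 and SEL1L (174 and 464 CPM). How far such differences shaped the correlations was not tested. EDEM3 and SEL1L were the closest pair of members (r = 0.964), and EDEM1 and HERPUD1 were next (r = 0.92), together with EDEM3 and DERL1 (r = 0.92). DERL3 was the least like the rest, with r from 0.13 (EDEM1) to 0.635 (SYVN1). SYVN1 was closest to EDEM2 (r = 0.694) and least like EDEM1 (r = 0.22), OS9 was closest to EDEM2 (r = 0.745) and DERL2 to SEL1L (r = 0.805). Over the 46 libraries other than the pair that sat nearer to another clone, EDEM3 and SEL1L were at 0.97 and EDEM1 and HERPUD1 at 0.96, while SYVN1 was then closest to DERL3 (r = 0.691) and DERL2 to DERL1 (r = 0.847). Outside the list, among 12007 genes, the gene most like each member was KLF9 for EDEM1 (r = 0.964), COPG1 for EDEM2 (0.971), SSFA2 for EDEM3 (0.986), GRPEL2 for SEL1L (0.976) and CLPTM1L for SYVN1 (0.951). It was CREB3L2 for HERPUD1 (0.982), SSR2 for DERL1 (0.975), COG3 for DERL2 (0.926), GUCD1 for DERL3 (0.881) and MAGED1 for OS9 (0.908).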

How the data were processed

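Poly(A) RNA of 48 libraries was sequenced with a stranded kit as single 50-base reads. Per the labels, the submitters' processing notes name the aligner GSNAP with R 4.1.3, edgeR 3.32.1 and limma 3.46.0; the counter, its annotation and its strand setting are not given for these libraries in the sources used here. For the IRF4 libraries of the same study the methods name HTSeqGenie with GENCODE annotation and exon reads of unambiguous origin, and whether this also holds for the present counts was not stated. The authors deposited raw read counts for 58302 genes, which were used here, and a log2 table of 18401 genes, whose values are those of log2 CPM from edgeR (prior count 2) and which served as an alternative. How reads were shared between overlapping genes can change the counts.

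Low counts were filtered with filterByExpr, set to a minimum count of 10 and a minimum total of 15. Each clone was fitted alone (12 libraries) with edgeR 4.0.16 in R 4.3.3, using TMM factors, the quasi-likelihood test and Benjamini-Hochberg adjustment across every gene that passed, at 0.05. Differences between shRNAs or clones came from 1 fit of 48 libraries. DESeq2 1.42.0, limma 3.58.1, other scalings, no filter, other sets of libraries, a replicate block and leaving out each replicate were alternatives. The scripts were tested on simulated data. Replicates were biological triplicates per the labels, and none was a duplicate (mean chi-square per gene of 1.67 to 62.1 between replicates). The text names all 10 members, the targeted genes, and those of 54 other ERAD genes with the largest mean change at 72 h that passed in both clones. The members and lists were chosen with earlier results of these data known. The levels at 72 h between clones, and the alternatives for the time steps and the clone comparisons, were chosen after seeing the data. The identity between the proteins was not analysed here.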

Additional observations from a re-analysis of the deposited data

Results flagged for a closer look

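The effect of Dox differed between groups, by a test of the difference itself (edgeR adjusted p under 0.05), in the following cases, all as differences of log2 fold changes. For shIRE1 minus shXBP1 at 24 h the values were -1.02 for EDEM1, -1.17 for EDEM3, -0.65 for SEL1L, 0.29 for SYVN1, -0.85 for HERPUD1, -0.67 for DERL1 and 0.11 for OS9. At 48 h they were -1.31 for EDEM1, -0.33 for EDEM2, -1.19 for EDEM3, -0.63 for SEL1L, 0.42 for SYVN1, -1.52 for HERPUD1, -0.88 for DERL1 and 0.31 for DERL3. At 72 h they were -1.22 for EDEM1, -0.23 for EDEM2, -1.14 for EDEM3, -0.57 for SEL1L, 0.38 for SYVN1, -1.28 for HERPUD1 and -0.90 for DERL1. Those of SYVN1 and OS9 at 24 h and of DERL3 at 48 h passed in neither pairing of single clones. The calls of OS9 and DERL3 were also lost without some single libraries.

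Between the shIRE1 clones, as clone 1 minus clone 3 at 24, 48 and 72 h, the differences were 1.23, 1.18 and 1.27 for EDEM1, 0.35, 0.33 and 0.35 for EDEM2, 0.33, 0.36 and 0.35 for SEL1L, 0.82, 1.18 and 1.06 for HERPUD1 and 0.27, 0.49 and 0.42 for OS9. Between the shXBP1 clones, as clone 1 minus clone 18 at the same times, they were 0.66, 0.80 and 0.67 for EDEM1, 0.32, 0.27 and 0.41 for EDEM2, 0.50, 0.50 and 0.79 for HERPUD1 and -0.20, -0.18 and -0.28 for DERL1. OS9 differed by 0.26 at 24 h and 0.35 at 72 h, and EDEM3 by 0.39 at 48 h and 0.34 at 72 h. The last of these did not pass without the doubted library.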

How the results depend on the processing

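The counts of members called in shXBP1 clone 18 changed with the libraries fitted. At 24 h the count was 2, and 1 to 8 with a library left out (1 without any of 0 h replicates 1 to 3 or 24 h replicates 2 and 3, 8 without 72 h replicate 3), 1 with total counts alone, 7 without a filter, 6 with DESeq2, 7 in a fit of all 48 libraries and 9 in one of the 6 libraries compared. At 48 h it was 7, and 3 to 10 with a library left out (3 or 4 without any of 0 h replicates 1 to 3 or 48 h replicates 1 and 2, 10 without 72 h replicate 3). At 72 h it was 9, and 5 with the 6 libraries alone. The count of different responses between the shXBP1 clones was 5 at 24 h and 3 without a filter, and at 48 h 3 to 6 with a library left out (3 without clone 1 48 h replicate 2 or clone 18 48 h replicate 3). For levels at 72 h it was 1 to 7 between the shXBP1 clones (2 without clone 1 replicate 1 or clone 18 replicate 1, 1 without clone 18 replicate 2, 7 without clone 18 replicate 3), and 1 to 2 between the shIRE1 clones, where the replicate block also gave 1. With total counts alone EDEM2 in shIRE1 clone 1 at 24 h turned from -0.15 to 0.0062. The causes were not tested. Of 290 single-member results, 288 kept their side of the threshold with RLE factors, 281 with DESeq2, 286 with limma on the deposited log2 table, 272 with total counts alone (10 lost their call, 7 gained one and 1 turned) and 261 without a filter (10 lost, 19 gained). Of 36 pairs of libraries with the same replicate number 13 had a correlation over 0.1 (range -0.805 to 0.668). All 3 pairs did so in shXBP1 clone 1 at 72 h and in no other comparison with 0 h, and there the replicate block took away the call of SEL1L and no other member's. In the other comparisons the pairs did not all deviate together. In shXBP1 clone 1 replicates 1 to 3 had 0.668, 0.606 and -0.355 at 48 h and -0.805, -0.675 and 0.174 at 24 h. Whether the numbers link libraries there is not known. With a replicate block 278 of the 290 kept their side, 11 lost their call and 1 gained one. The lowest count of a member in a library was 888, so depth limits none of these values.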
